A study of Mus musculus with 24 samples.

Results

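The data described here are the effect of the dietary fat source on the epididymal white fat of mice, averaged over mice with and without bacteria. All 24 arrays of the series were used, 12 from mice fed lard and 12 from mice fed fish oil. For each gene the effect was the mean of both lard groups minus the mean of both fish oil groups, with the same weight for conventional and for germ-free mice. The animals were wild-type C57Bl/6 males, 6 in each of 4 groups: fish oil-fed conventional, fish oil-fed germ-free, lard-fed conventional and lard-fed germ-free. From 11 weeks of age they ate isocaloric diets with 45% of energy as fat, from lard or from menhaden fish oil, for 11 weeks, and were fasted for 4 h before they were killed. Total RNA of each mouse, 250 ng, was hybridised to a one-colour Affymetrix whole-transcript array. There was no group on a low-fat diet, so a difference does not show which fat source moved a gene. The labels do not say whether mice shared cages or litters, so p-values measure the spread between these mice, and bacterial status cannot be told apart from the colony a mouse came from. Body weight and depot mass were not analysed here.

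Epididymal white fat is a visceral depot in which adipocytes store triglyceride and release fatty acids, among vessels, progenitor cells and resident macrophages. When such a depot expands, macrophages gather around stressed adipocytes, form multinucleated cells that take up lipid, and deposit matrix with the fibroblasts. Lard is rich in saturated and monounsaturated fatty acids and menhaden oil in long-chain omega-3 fatty acids, which are ligands of adipocyte receptors and substrates of lipid mediators, and which peroxidise easily.

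Values are RMA log2 signals as deposited, and each difference is lard minus fish oil on that log2 scale, with its standard error (SE) over 12 against 12 mice. A gene was called when the Benjamini-Hochberg adjusted p of limma over 19938 genes was under 0.05. Array medians lay between 7.09 and 7.20, and correlations within groups between 0.980 and 0.997. The means of 15 mature adipocyte markers lay from 12.58 to 12.81 (median 12.71) with fish oil and from 12.15 to 12.70 (median 12.50) with lard, well above the array medians in every sample. Several mice stood apart. Lard-fed conventional mice 5 and 6 had lipid-associated macrophage marker means of 12.05 and 12.17 against 11.06 to 11.35 in the other 4 of their group. In lard-fed germ-free mouse 4 the mean of 20 intestinal epithelium markers was 9.29, in mouse 5 it was 6.60 and in mouse 2 it was 6.47, while the other 21 mice had at most 6.39. Means of 24 liver markers lay between 8.31 and 9.52 in germ-free mice on fish oil and at or below 8.35 in all others. The count of a gene list is therefore also given without these 5 lard-fed mice, or with the liver mean as a covariate, where that moved it by over 1.5 times and by at least 2 genes.

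Differences between the fat sources were widespread. The RNA came from whole fat, in which more or fewer cells of a type cannot be told apart from more or less RNA per cell. A total of 10728 of 19938 genes (53.8%) were called, of which 4477 (22.5%) were higher and 6251 (31.4%) lower with lard. Most differences were small: the median size among called genes was 0.26, and 1051 genes (5.27%) were at least 1.5-fold higher and 544 (2.73%) at least 1.5-fold lower. Higher genes thus made up the larger share of the strong differences, while lower genes made up the larger share of the weak ones. When genes under the 40th percentile of mean signal were left out, 4047 were higher and 3735 lower, so the excess of lower genes was not seen among the brighter genes. At least 2-fold differences numbered 395, with 301 higher and 94 lower, and at least 4-fold differences 20, with 15 higher and 5 lower. The median difference over all genes was -0.06. Without the 5 lard-fed mice that stood apart 7502 genes were called, 3806 higher and 3696 lower, and 7262 of them were among the 10728.

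The direction was the same in conventional and in germ-free mice for 10251 of the 10728 called genes. In 4190 of them the difference also passed within conventional and within germ-free mice taken alone: 2226 (11.2% of all genes) were higher and 1964 (9.85%) lower with lard in both states. These contrasts share their arrays with the main effect and are not independent of it. Among the other genes of 1 direction, 3628 passed in germ-free mice alone, 1371 in conventional mice alone and 1062 in neither. Opposite directions in the 2 states were seen for 477 called genes, and for 351 of these the interaction, the difference between the diet effects of the 2 states, also passed. The interaction was called for 1435 genes (7.2%), of which 509 had no call in the main effect. That count depended on which mice were included: it was 225 without lard-fed germ-free mice 2, 4 and 5, 2710 without lard-fed conventional mice 5 and 6, 988 without all 5, and 861 to 2070 with any 1 mouse left out. It was lowest without lard-fed conventional mouse 3 and also fell by over 1.5 times without fish oil-fed conventional mouse 3 (909) or lard-fed germ-free mouse 4 (925). Of the 4190 genes called in both states, 129 had a called interaction, 1975 had the larger effect in conventional and 2215 in germ-free mice. Genes with at least a 2-fold difference were called in both states in 379 of 395 cases. Without the 5 mice, the genes called in both states numbered 2641, and with the liver mean as a covariate 1875.

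**Figure D1:**
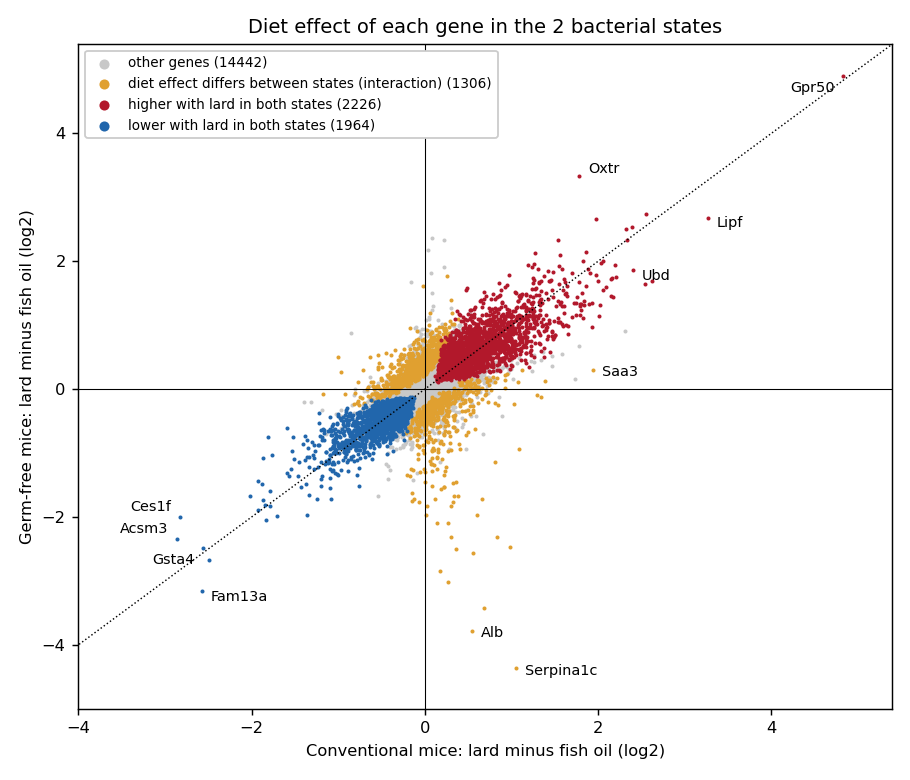
Each of the 19938 genes is plotted by its lard minus fish oil difference (log2) in conventional mice on the horizontal axis and in germ-free mice on the vertical axis, and the dotted line marks equal differences. Red and blue points, the 2226 and 1964 genes called in both states, lie along the line, and the orange points, 1306 further genes with a called interaction, lie off it, with the liver transcripts Alb and Serpina1c near the bottom.

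Diet held a median of 59.95% of the variance of the 4190 genes over the 24 arrays, bacterial status 5.37%, the interaction 0.90% and differences between mice of a group 27.2%. These genes were picked for diet contrasts that passed in both states in 1 direction. A high diet share and a low interaction share follow in part from that choice. Over all genes the diet share had a median of 20.5%, status 4.58%, the interaction 3.38% and differences between mice of a group 59.1%. For 3487 genes diet held more than 50% of the variance. In 630 genes (3.16%) the lowest of the 12 lard-fed mice lay above the highest of the 12 fish oil-fed mice, and in 260 (1.3%) all 12 lay below. Of these 890 genes, 888 were called in both states and 203 differed by at least 2-fold. A gene that separates all mice by diet also separates them within each state, so the calls in both states largely follow from the definition.

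The largest difference in either direction was that of Gpr50, an orphan receptor of the melatonin receptor family. Its signals were 5.21 to 7.34 (median 5.74) in fish oil-fed conventional, 6.05 to 8.29 (median 7.12) in fish oil-fed germ-free, 9.46 to 11.64 (median 10.76) in lard-fed conventional and 11.77 to 12.30 (median 12.03) in lard-fed germ-free mice. All lard-fed mice lay above all fish oil-fed mice, with no overlap in either state. The difference was 4.86 ± 0.27, 29.1-fold (limma adjusted p = 3.53e-12), at 4.83 in conventional and 4.89 in germ-free mice. Gpr50 is X-linked, and all mice were male.

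Lipf, gastric lipase, was next, with signals of 5.49 to 8.31 (median 7.21) with fish oil and 8.95 to 10.54 (median 10.19) with lard. No lard-fed mouse overlapped a fish oil-fed one, and the difference was 2.98 ± 0.22 (limma adjusted p = 3.44e-10). Tnip3, which restrains NF-kappaB signalling together with A20, lay at 6.34 to 7.88 (median 7.22) with fish oil and 8.29 to 10.71 (median 10.05) with lard, a difference of 2.65 ± 0.19. Its groups did not overlap, and its differences were 2.56 in conventional and 2.74 in germ-free mice. Oxtr, the oxytocin receptor, had signals of 7.88 to 8.79 (median 8.16) with fish oil and 9.73 to 12.03 (median 10.74) with lard and a difference of 2.56 ± 0.15. The effects were unequal, 1.78 in conventional and 3.34 in germ-free mice (interaction adjusted p = 0.00275), while the groups still did not overlap. Ubd, a ubiquitin-like modifier induced by inflammatory cytokines, had the smallest adjusted p of the genes named here, 2.99e-13, with signals of 5.65 to 6.35 (median 5.95) with fish oil and 7.68 to 8.92 (median 7.98) with lard. The within-group spread of Ubd was small beside its difference of 2.13 ± 0.10.

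The rest of the 12 largest rises spanned several kinds of protein. Cdkl4, a kinase of the cyclin-dependent kinase-like family, rose by 2.46 ± 0.15, from a range of 6.06 to 7.16 (median 6.77) to one of 8.05 to 9.75 (median 9.22), without overlap. Cd72, an inhibitory lectin-type receptor of leukocytes, rose by 2.33 ± 0.26, at 2.33 in conventional and 2.33 in germ-free mice. Trdn, triadin of the calcium release complex, rose by 2.32 ± 0.15 and also separated all mice. Slc5a7, the high-affinity choline transporter, rose by 2.41 ± 0.27, but fish oil-fed conventional mouse 1, at 9.86, lay above the lowest lard-fed mouse, at 9.75. Tm4sf19, a tetraspan membrane protein (2.16 ± 0.25), Stap1, an adaptor of tyrosine kinase signalling (2.07 ± 0.24), and Dhrs9, a dehydrogenase of retinoids and steroids (2.04 ± 0.23), rose as well, with overlapping ranges.

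On the side of the falls, 3 of the 4 largest were enzymes. Fam13a, known for fat distribution and for insulin signalling in adipocytes, had signals of 9.73 to 12.44 (median 11.05) in fish oil-fed conventional, 11.78 to 12.22 (median 12.09) in fish oil-fed germ-free, 7.97 to 9.21 (median 8.33) in lard-fed conventional and 8.53 to 9.37 (median 8.89) in lard-fed germ-free mice. The fish oil-fed conventional mice were the most spread, and even their lowest lay above every lard-fed mouse. The difference was -2.87 ± 0.21 (limma adjusted p = 2.44e-10). Acsm3, a mitochondrial medium-chain acyl-CoA synthetase, lay at 7.33 to 10.64 (median 8.34) with fish oil and 5.68 to 6.35 (median 5.95) with lard, a difference of -2.60 ± 0.24. With lard its signal was low in all 12 mice and varied little. Gsta4, a glutathione transferase that conjugates the lipid peroxidation product 4-hydroxynonenal, lay at 10.31 to 11.27 (median 10.62) with fish oil and 7.11 to 9.15 (median 8.19) with lard, a difference of -2.52 ± 0.17 that was -2.56 in conventional and -2.48 in germ-free mice. Ces1f, a carboxylesterase of lipid hydrolysis, lay at 10.92 to 12.39 (median 11.57) with fish oil and 7.57 to 9.84 (median 9.47) with lard, a difference of -2.41 ± 0.19. Both enzymes separated the diets in both states, as the strips of single genes show. Ces1f has close paralogs, from Ces1a to Ces1g, and cross-hybridisation between them was not tested.

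**Figure D2:**
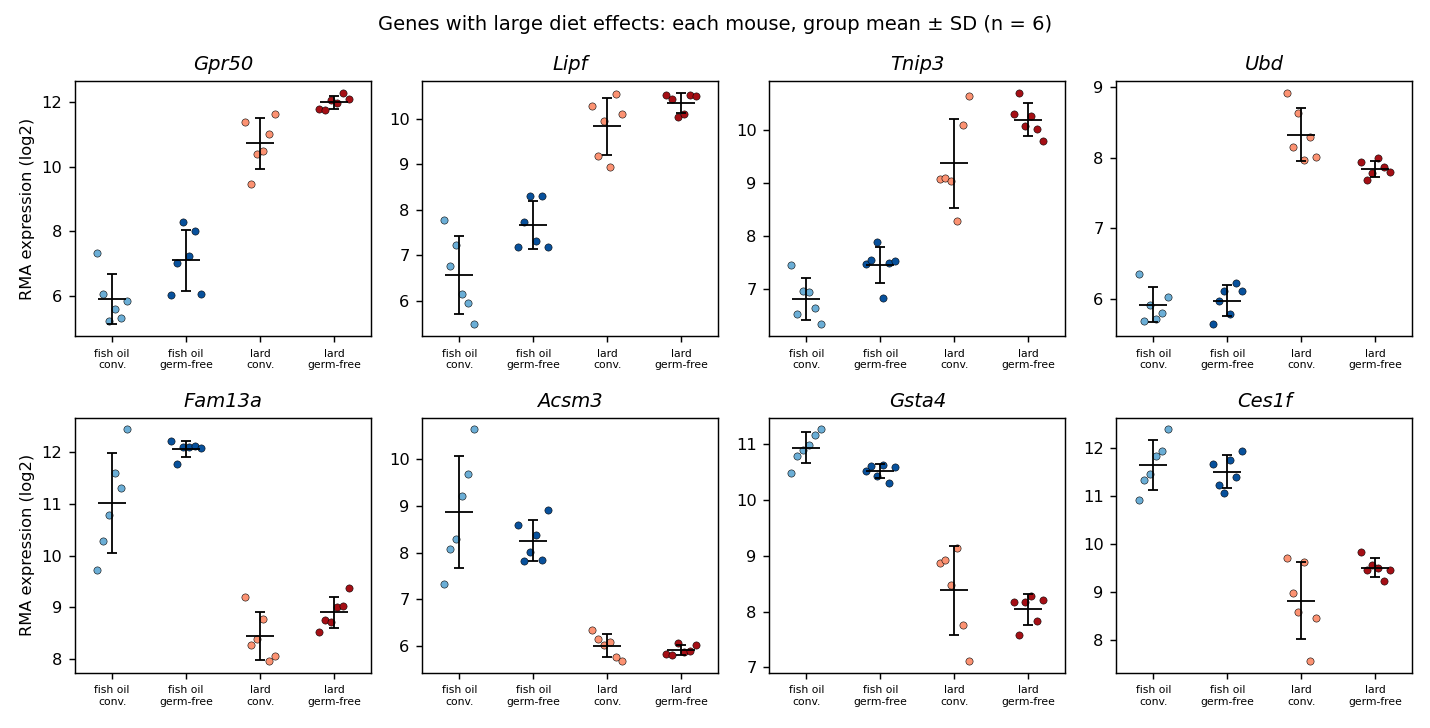
Each point is the RMA signal (log2) of 1 mouse for 4 of the largest rises (Gpr50, Lipf, Tnip3, Ubd) and the 4 largest falls (Fam13a, Acsm3, Gsta4, Ces1f), in the 4 groups of 6, with bars for the group mean ± SD; each panel has its own axis. In all 8 panels the lard-fed and fish oil-fed mice do not overlap, and in Gpr50 and Lipf the germ-free mice of a diet tend to the higher values.

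Cyp2e1, a cytochrome P450 that oxidises fatty acids and is also a liver marker, fell from a range of 13.27 to 13.69 (median 13.41) to one of 9.34 to 12.70 (median 11.59), a difference of -1.94 ± 0.29. It did not overlap between diets and, alone among the liver markers, was called lower in both states, -1.83 in conventional and -2.05 in germ-free mice. Thrsp, a regulator of fatty acid synthesis, differed by -1.84 ± 0.24, with overlapping ranges. Pck1, which supplies glycerol for triglyceride in fat, differed by -1.68 ± 0.20, and Mogat1, a monoacylglycerol acyltransferase, by -1.68 ± 0.18, both without overlap. Gsta3, a second glutathione transferase, differed by -1.83 ± 0.17, and Eci3, an enoyl-CoA isomerase of fatty acid oxidation, by -1.80 ± 0.18. Adgrg2, an adhesion receptor best known from the epididymal ducts, differed by -1.81 ± 0.16, at -1.79 in conventional and -1.83 in germ-free mice. Of 12 measured epididymis and testis markers, 0 rose and 3 fell (25%, against 31.4% of all genes). Without the 5 mice that stood apart limma called 0 of them lower (0 at an unadjusted p under 0.05). The part of such tissue in the Adgrg2 value was not tested. Asb12, an ankyrin repeat protein, differed by -1.69 ± 0.28, with overlap.

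Some genes moved by at least 2-fold to almost the same extent in both states. Nckap1l, a regulator of actin in blood cells, differed by 1.35 in conventional and 1.35 in germ-free mice, with signals of 9.23 to 10.21 (median 9.84) with fish oil and 10.11 to 11.79 (median 11.22) with lard. Cmtm3, a transmembrane protein of the chemokine-like factor family, differed by 1.12 and 1.12, and Otop1, a proton channel, by 1.01 and 1.01. Tlr6, a partner of TLR2 in the recognition of lipopeptides, differed by 1.25 and 1.26. With Cd72 these had the smallest differences between states among such genes, and were picked for that.

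Macrophage transcripts were higher with lard in both states. Of 20 macrophage markers, 19 rose and 1 fell, against 22.5% and 31.4% of all genes, with a median difference of 0.91 against -0.06 over all genes. In both states taken alone 15 of them were higher. Adgre1, which encodes F4/80, had signals of 9.89 to 10.76 (median 10.22) with fish oil and 11.02 to 12.67 (median 11.93) with lard, a difference of 1.57 ± 0.15 with no overlap. Fcgr1, the high-affinity IgG receptor, differed by 1.28 ± 0.15. The marker that fell was Mertk, a receptor for apoptotic cells, at -0.24 ± 0.07 (limma adjusted p = 0.00691), which lost its call with the liver mean as a covariate (adjusted p = 0.344).

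Among lipid-associated macrophage markers 12 of 15 rose and 1 fell. Trem2, the lipid-sensing receptor that defines these cells, had signals of 8.19 to 10.89 (median 9.99) with fish oil and 10.11 to 12.03 (median 11.33) with lard, a difference of 1.57 ± 0.20. Ranges overlapped between diets, and on fish oil the germ-free mice, at 10.05 to 10.89, lay above all conventional mice, at 8.19 to 9.92. Itgax, which encodes CD11c, differed by 1.64 ± 0.22 and Atp6v0d2, a subunit of the vacuolar proton pump, by 1.67 ± 0.25. Acp5, tartrate-resistant acid phosphatase, went the other way, at -0.38 ± 0.06, from a range of 11.87 to 12.54 (median 12.09) to one of 11.57 to 11.94 (median 11.72). Per mouse, the mean of the 15 markers lay from 10.04 to 11.57 (median 11.14) with fish oil and from 11.06 to 12.24 (median 11.82) with lard. Without the 5 mice that stood apart, 11 higher and 1 lower of 15 were called.

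Markers of resident and alternatively activated macrophages were mixed: 4 of 12 rose (33.3%) and 2 fell (16.7%), against 22.5% and 31.4% of all genes. Folr2, a folate receptor, rose by 0.88 ± 0.14 and Mrc1, the mannose receptor, by 0.55 ± 0.11. Cd163, the haemoglobin scavenger receptor, differed by -0.61 ± 0.15 and Timd4, a phosphatidylserine receptor, by -0.30 ± 0.08.

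All 11 measured genes of MHC class II presentation, by which macrophages and dendritic cells show peptides to CD4 T cells, rose, with a median of 0.76. H2-DMa, which loads peptides, had signals of 9.24 to 9.89 (median 9.59) with fish oil and 10.32 to 11.12 (median 10.72) with lard, a difference of 1.18 ± 0.07 (limma adjusted p = 3.49e-12). Cd74, the invariant chain, differed by 0.89 ± 0.05, H2-Aa by 0.95 ± 0.07 and H2-Eb1 by 0.87 ± 0.06, all without overlap. The mean of the 11 genes lay from 8.99 to 9.47 (median 9.25) with fish oil and from 9.71 to 10.08 (median 9.85) with lard, so all 12 lard-fed mice were above all 12 fish oil-fed mice. The effects were not equal in size, for the interaction passed for 7 of the 11: Cd74 differed by 1.13 in conventional and 0.65 in germ-free mice (interaction adjusted p = 0.00762).

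In Toll-like receptor signalling 17 of 20 rose and 1 fell, with a median of 0.47, and the list mean again separated all 12 from all 12. Ly86 (1.58 ± 0.12) and its partner Cd180 (1.57 ± 0.16), which modulate lipopolysaccharide responses, led the list. The endosomal RNA receptor Tlr8 (1.56 ± 0.15) and Tlr1 (1.51 ± 0.14), a partner of TLR2, followed. Tlr4, the lipopolysaccharide receptor, moved little: 8.78 to 9.26 (median 8.99) with fish oil and 8.91 to 9.68 (median 9.29) with lard, a difference of 0.24 ± 0.07 (limma adjusted p = 0.00599), which did not pass without the 5 mice (adjusted p = 0.151). The kinase Irak1 was the member that fell, by 0.10 on the log2 scale (adjusted p = 0.0307), and it lost its call when fish oil-fed conventional mouse 4 or 6, fish oil-fed germ-free mouse 4, lard-fed conventional mouse 5 or lard-fed germ-free mouse 4 was left out.

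Secreted inflammatory signals rose more often than they fell, though this depended on the fit. Among chemokines and cytokines 12 of 29 rose (41.4%) and 5 fell (17.2%), against 22.5% and 31.4% of all genes. With the liver mean as a covariate 7 were higher and 7 lower, with a median of 0.01. Il1rn, the antagonist of the interleukin-1 receptor, had signals of 7.02 to 9.02 (median 8.19) with fish oil and 9.04 to 10.95 (median 9.84) with lard, a difference of 1.95 ± 0.20 with no overlap. Il1b, interleukin-1 beta, was lower, at -0.64 ± 0.14, and so was Il18, a cytokine of the same family, at -0.42 ± 0.08, each called in both states. The chemokine Ccl9 rose by 1.18 ± 0.11 and Ccl6 by 0.84 ± 0.09. Ccl2, which recruits monocytes, differed by 0.91 ± 0.19, at 1.47 in conventional and 0.36 in germ-free mice, where the germ-free value did not pass (adjusted p = 0.283) and the interaction had an adjusted p of 0.0837. With the liver mean as a covariate Ccl2 did not pass (0.39, adjusted p = 0.103).

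Complement and interferon genes were mostly higher. For complement 7 of 13 rose and 3 fell, among them the anaphylatoxin receptors C5ar1 (1.26 ± 0.14) and C3ar1 (1.18 ± 0.14). C2, a protease of the classical pathway, differed by -1.09 ± 0.09, from a range of 10.04 to 10.79 (median 10.37) to one of 8.98 to 9.58 (median 9.40), and Masp1, a protease of the lectin pathway, by -0.64 ± 0.08. Both proteases were lower in all 12 lard-fed mice. Among interferon-stimulated genes 14 of 21 rose and 1 fell, with a median of 0.28. In the local acute phase list 5 of 12 rose (41.7%) and 2 fell (16.7%), against 22.5% and 31.4% of all genes. With the liver mean as a covariate limma called 4 higher and 0 lower (1 at an unadjusted p under 0.05). Orm2, an acid glycoprotein, rose by 1.09 ± 0.19.

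Among T cell markers 1 of 13 rose and 1 fell, and among NK and cytotoxic markers 1 of 10 rose and 0 fell. For B cell markers 1 of 8 rose (12.5%) and 2 fell (25%), and for mast cell markers 1 of 8 rose and 1 fell. Of all genes 22.5% were higher and 31.4% lower, so the B cell count was not far from that share. The B cell count depended on the fit: with the liver mean as a covariate 5 of 8 were lower, and without the 5 mice limma called 0 lower (0 at an unadjusted p under 0.05). The T cell marker that rose was Il7r, the interleukin-7 receptor, at 1.52 ± 0.21, a gene that is not restricted to T cells. The mast cell marker that rose was Cpa3, carboxypeptidase A3, at 1.07 ± 0.33 (adjusted p = 0.00789), and it lost its call without the 5 mice (0.65, adjusted p = 0.0691). Among neutrophil markers 1 of 10 rose (10%) and 4 fell (40%). Of the 3 with a mean signal above the 40th percentile, 1 rose and limma called 0 lower (0 at an unadjusted p under 0.05). S100a8 and S100a9, which encode the chains of calprotectin, moved apart: S100a8 lay at 6.03 to 7.42 (median 6.50) with fish oil and 6.56 to 8.70 (median 7.45) with lard, a difference of 0.90 ± 0.15. In germ-free mice alone the rise of S100a8 did not pass, with 6.03 to 7.42 on fish oil and 6.56 to 7.43 on lard. S100a9 lay at 6.33 to 7.86 (median 6.75) with fish oil and 5.74 to 6.20 (median 5.88) with lard, a difference of -0.93 ± 0.13 with no overlap. The chemokine receptor Cxcr2 differed by -0.73 ± 0.16.

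Genes of cell division were higher with lard without exception. All 24 measured genes rose, all 24 were called in both states, and in 18 of them the lowest lard-fed mouse lay above the highest fish oil-fed one, against 3.16% of all genes. Their median difference was 1.11, with 1.12 in conventional and 1.10 in germ-free mice, and limma's interaction passed for 0 of them (1 at an unadjusted p under 0.05). The mean of the 24 genes lay from 6.69 to 7.22 (median 7.06) with fish oil and from 7.58 to 8.64 (median 8.03) with lard, as the strips of list means show. Cell division itself was not measured, nor was the type of cell that held these transcripts.

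Bub1, a kinase of the spindle checkpoint, had signals of 5.31 to 6.20 (median 5.96) in fish oil-fed conventional, 5.58 to 6.40 (median 5.95) in fish oil-fed germ-free, 6.81 to 8.49 (median 7.31) in lard-fed conventional and 7.22 to 8.57 (median 7.52) in lard-fed germ-free mice. Neither state had any overlap between diets. Its difference was 1.67 ± 0.17 (limma adjusted p = 1.95e-08). Ccna2, cyclin A2, differed by 1.57 ± 0.14, Kif11, a spindle motor, by 1.32 in conventional and 1.67 in germ-free mice, and Ccnb2, cyclin B2, by 1.46 ± 0.14. Each of the 3 separated the diets as well. Without the 5 mice that stood apart all 24 genes still rose, with a median of 0.98.

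Because these genes moved together, their promoters were examined in the RefSeq windows from 250 bases before to 50 after the transcription start (GRCm38.p6). Cell cycle promoters are known for a pair of motifs, the nuclear factor Y box (CCAAT) and the cell cycle homology region (TTTGAA). Both were searched on both strands in the 21 windows found for 20 of the 24 genes. CCAAT was in 81.0% of the windows, against 37.4% of 19177 windows of all tested genes, and TTTGAA in 61.9% against 14.8%. CCAAT was not particular to this list. It was also in 84.2% of windows of cholesterol synthesis and uptake genes and in 57.1% of those of antioxidant and glutathione genes. TTTGAA was in 5.3% and 9.5% of these windows. Windows of 1 gene can overlap, and a match is a description of letters and not of binding. The promoters of Ccnb2 (chr9:70421505-70421804, minus strand), Kif11 (chr19:37376132-37376431, plus strand) and Bub1 (chr2:127831810-127832109, minus strand) are shown since the 3 genes separated the diets and differ in their motifs; capitals mark both motifs, read on either strand.
Ccnb2: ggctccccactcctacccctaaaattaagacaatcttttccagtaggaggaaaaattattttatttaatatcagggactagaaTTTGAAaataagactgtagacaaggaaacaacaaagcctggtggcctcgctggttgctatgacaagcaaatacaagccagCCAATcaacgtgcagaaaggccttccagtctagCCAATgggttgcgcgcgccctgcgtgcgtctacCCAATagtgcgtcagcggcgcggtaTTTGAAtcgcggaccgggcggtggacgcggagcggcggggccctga
Kif11: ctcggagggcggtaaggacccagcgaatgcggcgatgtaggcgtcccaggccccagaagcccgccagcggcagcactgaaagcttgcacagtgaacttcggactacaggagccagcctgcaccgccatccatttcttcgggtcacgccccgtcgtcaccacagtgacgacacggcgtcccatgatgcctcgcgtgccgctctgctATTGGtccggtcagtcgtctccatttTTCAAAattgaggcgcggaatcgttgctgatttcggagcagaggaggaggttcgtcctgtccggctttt
Bub1: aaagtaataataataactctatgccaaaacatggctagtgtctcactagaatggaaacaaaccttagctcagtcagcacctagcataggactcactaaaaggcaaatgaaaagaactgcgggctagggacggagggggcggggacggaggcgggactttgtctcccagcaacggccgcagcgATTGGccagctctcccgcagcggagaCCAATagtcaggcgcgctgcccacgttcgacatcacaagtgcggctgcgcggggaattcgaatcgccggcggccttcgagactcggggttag
Ccnb2 has 3 boxes of nuclear factor Y, which begin at positions -87, -54 and -21 from the start, and a homology region on either side of them. Kif11 has 1 of each, and Bub1 has 2 boxes and no TTTGAA in this window. No motif overlaps another in them.

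Lysosome genes, which macrophages use to digest lipid and cell debris, rose almost throughout: 21 of 22 rose and 0 fell, with a median of 0.42. Ctsh, cathepsin H, had signals of 9.46 to 10.29 (median 9.78) with fish oil and 10.26 to 11.34 (median 10.99) with lard, a difference of 1.08 ± 0.11. Atp6v1b2, a subunit of the proton pump, rose by 0.98 ± 0.11 and Lgmn, legumain, by 0.97 ± 0.10. In none of the list did every lard-fed mouse lie above every fish oil-fed mouse, so single genes overlapped although 18 of 22 were called in both states.

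Cholesterol genes were higher as well. Among genes of cholesterol ester handling and efflux 8 of 15 rose and 3 fell, with 1 lower both without the 5 mice and with the liver mean as a covariate. Lipa, lysosomal acid lipase, rose by 1.15 ± 0.13, and Abcg1, a cholesterol exporter, by 1.06 ± 0.11. Pltp, phospholipid transfer protein, rose by 1.13 ± 0.09, from a range of 11.38 to 12.12 (median 11.79) to one of 12.41 to 13.20 (median 13.06), without overlap. Among genes of cholesterol synthesis and uptake 14 of 20 rose and 2 fell, with a median of 0.32, and without the 5 mice 13 were higher and 0 lower (2 at limma's unadjusted p under 0.05). Lss, lanosterol synthase, differed by 0.89 ± 0.09, more in germ-free mice, 0.53 in conventional and 1.24 in germ-free mice (interaction adjusted p = 0.0159). Dhcr7, which makes cholesterol in its last step, rose by 0.88 ± 0.10 and separated all mice, Nsdhl, a sterol dehydrogenase, rose by 0.62 ± 0.09, and Insig1, a sterol-regulated brake on this pathway, by 0.61 ± 0.12. The sterol element core TCACNCCAC was in 5.3% of their 19 promoter windows, 1 window, against 1.2% of all.

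Matrix genes rose widely. In the collagen and matrix list 22 of 26 rose and 1 fell, with a median of 0.53, and the list mean lay from 9.42 to 9.94 (median 9.86) with fish oil and from 10.05 to 10.51 (median 10.32) with lard, without overlap. Lox, which cross-links collagen, had signals of 9.16 to 9.56 (median 9.45) with fish oil and 9.82 to 10.73 (median 10.63) with lard, a difference of 1.02 ± 0.08. Col12a1, a fibril-associated collagen, rose by 1.29 ± 0.17 and Postn, periostin, by 0.88 ± 0.09. Among matrix proteases and inhibitors 11 of 19 rose and 1 fell. The gelatinase Mmp2 rose by 1.22 ± 0.13 and the stromelysin Mmp3 by 1.29 ± 0.22. Timp1, an inhibitor of such proteases, differed by 1.61 ± 0.27, with 2.31 in conventional and 0.91 in germ-free mice, and only the conventional value passed alone (germ-free adjusted p = 0.0574). Timp4 was lower, at -0.90 ± 0.24, but it did not pass in germ-free mice alone. Among adipose progenitor markers 7 of 13 rose and 1 fell, led by the matrix proteoglycan Lum (1.23 ± 0.15) and the growth factor receptor Pdgfrb (0.84 ± 0.06), which separated the diets.

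**Figure D3:**
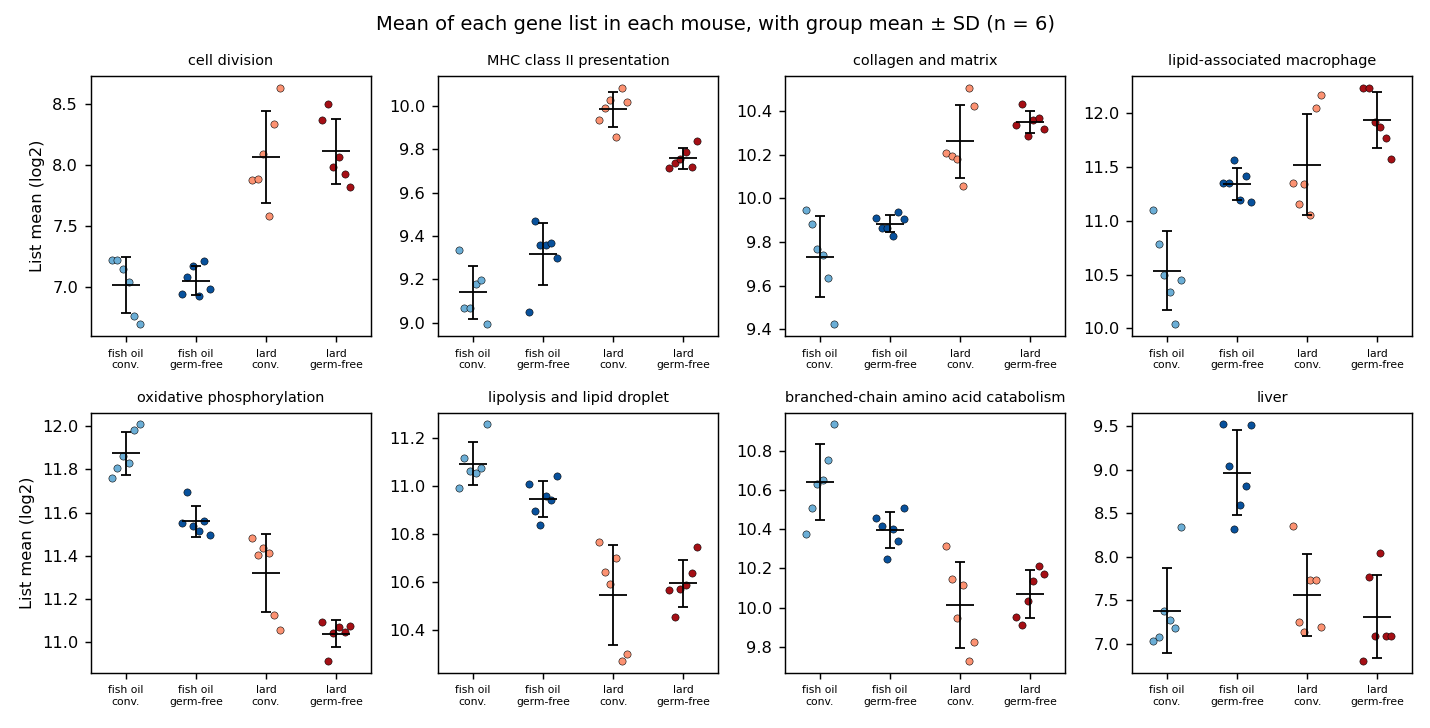
Each point is the mean RMA signal (log2) of a gene list in 1 mouse, by group of 6, with bars for the group mean ± SD; each panel has its own axis. Cell division, MHC class II and collagen means are higher in all 12 lard-fed mice and oxidative phosphorylation and lipolysis means lower, the branched-chain amino acid and lipid-associated macrophage means overlap between diets, and the liver mean stands out in fish oil-fed germ-free mice.

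Mitochondrial genes moved the other way. Of 37 genes of oxidative phosphorylation, 35 fell and none rose, with a median of -0.52, and 29 of them were called in both states. The list mean lay from 11.50 to 12.01 (median 11.73) with fish oil and from 10.91 to 11.48 (median 11.08) with lard, so every lard-fed mouse was below every fish oil-fed mouse. Ndufa5, a subunit of complex I, had signals of 9.38 to 9.92 (median 9.59) in fish oil-fed conventional, 8.96 to 9.27 (median 9.11) in fish oil-fed germ-free, 7.95 to 8.63 (median 8.35) in lard-fed conventional and 7.72 to 7.95 (median 7.88) in lard-fed germ-free mice. Its difference was -1.26 ± 0.07 (limma adjusted p = 3.49e-12), with no overlap. Ndufb8, also of complex I, differed by -1.22 ± 0.11 and Cox4i1, of complex IV, by -0.82 ± 0.06. Among mitochondrial ribosomal proteins 2 of 28 rose and 23 fell, with a median of -0.38, led by Mrps18a (-0.66 ± 0.08). Mrpl4 was 1 of the 2 that rose, at 0.32 ± 0.05.

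Most enzymes that feed the respiratory chain were lower as well. In the list of pyruvate and the citric acid cycle 0 of 21 rose and 18 fell, against 2 higher and 14 lower with the liver mean as a covariate. Pdhb, of pyruvate dehydrogenase, had signals of 9.38 to 10.24 (median 9.71) with fish oil and 8.55 to 9.35 (median 8.78) with lard, a difference of -0.92 ± 0.07 without overlap, Mpc1, a pyruvate carrier, differed by -0.69 ± 0.08 and Pdk2, a kinase that switches pyruvate dehydrogenase off, by -0.76 ± 0.10. For branched-chain amino acid catabolism 2 of 21 rose and 18 fell, with a median of -0.54. Pccb, propionyl-CoA carboxylase, fell from a range of 10.07 to 10.95 (median 10.35) to one of 9.19 to 9.95 (median 9.52), a difference of -0.91 ± 0.08, and Bckdha, of the branched-chain keto acid dehydrogenase, by 0.91 on the log2 scale. Bcat1, the cytosolic aminotransferase, was higher instead, at 0.69 ± 0.09. For fatty acid oxidation 3 of 28 rose and 17 fell. Eci1 (-0.82 ± 0.11) and Acadvl, the very long-chain acyl-CoA dehydrogenase (-0.68 ± 0.07), fell. Cpt1a, which admits fatty acids to mitochondria, rose in all 12 mice above all 12, by 0.72 ± 0.06.

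The lipid synthesis lists moved about as often as all genes did, of which 22.5% were higher and 31.4% lower. In the fatty acid synthesis list 5 of 25 rose (20%) and 9 fell (36%). Acaca, acetyl-CoA carboxylase 1, had signals of 10.92 to 12.78 (median 11.95) with fish oil and 10.15 to 10.76 (median 10.61) with lard, a difference of -1.47 ± 0.11 without overlap. It was larger in conventional mice, -1.87 in conventional and -1.07 in germ-free mice (interaction adjusted p = 0.0341). Acacb, acetyl-CoA carboxylase 2, differed by -0.97 ± 0.14. Of the stearoyl-CoA desaturases, Scd2 rose by 1.29 ± 0.14 and Scd1 did not pass, at 0.04 ± 0.04 (adjusted p = 0.385), with signals of 13.72 to 14.07 (median 13.84) with fish oil and 13.73 to 13.98 (median 13.92) with lard. Elovl1, an elongase of very long chains, rose by 0.58 ± 0.07. Among genes of lipid uptake and triglyceride synthesis 4 of 18 rose (22.2%) and 7 fell (38.9%). Lipf led the rises and Mogat1 and Pck1 the falls, and Gpam, which starts glycerolipid synthesis, differed by -0.57 ± 0.08.

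Adipocyte functions were mostly lower. Of 15 mature adipocyte markers, 2 rose and 9 fell, with a median of -0.24. In the lipolysis and lipid droplet list 3 of 18 rose and 11 fell, and the list mean was lower in all 12 lard-fed mice. Ces1d, a triglyceride hydrolase, had signals of 13.03 to 13.43 (median 13.24) with fish oil and 10.43 to 12.37 (median 12.01) with lard, a difference of -1.45 ± 0.16. Pde3b, the phosphodiesterase by which insulin restrains lipolysis, differed by -0.87 ± 0.10. Cidea, a lipid droplet protein, differed by -1.28 ± 0.16, and unequally, -1.81 in conventional and -0.75 in germ-free mice (interaction adjusted p = 0.0469). Plin2, a droplet coat protein found in many cell types, rose by 0.62 ± 0.08.

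For insulin signalling and glucose handling 4 of 24 rose (16.7%) and 15 fell (62.5%), against 22.5% and 31.4% of all genes. With the liver mean as a covariate 2 were higher and 11 lower. The list mean lay from 10.45 to 10.78 (median 10.64) with fish oil and from 10.01 to 10.44 (median 10.25) with lard. Irs1, the insulin receptor substrate, had signals of 9.48 to 10.49 (median 9.90) with fish oil and 8.39 to 9.12 (median 8.84) with lard, a difference of -1.18 ± 0.10 with no overlap. Slc2a4, the insulin-regulated glucose transporter GLUT4, differed by -0.86 ± 0.16 and Pygl, glycogen phosphorylase, by -1.06 ± 0.10. Slc2a1, the basal transporter GLUT1, was higher at 0.47 ± 0.10, but in conventional mice alone its difference of 0.19 did not pass (adjusted p = 0.315). Among fatty acid sensors and adipocyte regulators 1 of 20 rose and 14 fell, and the list mean was lower in all 12 lard-fed mice than in any fish oil-fed mouse. Klf15, a regulator of fuel use, differed by -0.94 ± 0.10, the adipocyte factor Cebpa by -0.70 ± 0.07 and the mitochondrial coactivator Ppargc1a by -0.88 ± 0.11. Ffar4, a receptor for long-chain fatty acids including omega-3 ones, had signals of 8.34 to 9.16 (median 8.84) with fish oil and 7.77 to 8.43 (median 8.21) with lard, a difference of -0.69 ± 0.08. It was -0.95 in conventional and -0.44 in germ-free mice (interaction adjusted p = 0.0464). Nr1h3, the liver X receptor alpha, was the 1 member that rose, at 0.24 ± 0.05, but it did not pass in conventional mice alone.

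Hormones and markers of fat expansion moved in both directions: 6 of 18 rose (33.3%) and 10 fell (55.6%), against 22.5% and 31.4% of all genes. With the liver mean as a covariate 3 were higher and 8 lower. Mest, a marker of adipocyte enlargement, had signals of 10.66 to 11.94 (median 11.68) with fish oil and 12.51 to 13.38 (median 12.81) with lard, a difference of 1.31 ± 0.10 without overlap. Lep, leptin, rose by 0.42 ± 0.09, called in both states, and Sfrp5, a secreted Wnt inhibitor, by 1.00 ± 0.22, a call that Sfrp5 lost with the liver mean as a covariate (adjusted p = 0.0606). Adipoq, adiponectin, fell from a range of 13.44 to 13.75 (median 13.59) to one of 12.60 to 13.42 (median 13.22), a difference of -0.47 ± 0.09. Agt, angiotensinogen, differed by -1.43 ± 0.16, Retn, resistin, by -0.78 ± 0.13 and Nnat, neuronatin, by -0.89 ± 0.14. The first 2 of these separated the diets. Among brown-like adipocyte genes 1 of 14 rose (7.14%) and 5 fell (35.7%), against 22.5% and 31.4% of all genes.

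In the antioxidant and glutathione list 10 of 38 rose (26.3%) and 16 fell (42.1%), against 22.5% and 31.4% of all genes. Besides Gsta4 and Gsta3, Gstp1 (-0.88 ± 0.12) and Gstt1 (-0.76 ± 0.10) were the largest falls. Ephx1, microsomal epoxide hydrolase, was the largest rise, with signals of 9.66 to 10.54 (median 10.02) with fish oil and 10.86 to 11.32 (median 11.08) with lard and a difference of 1.07 ± 0.07 without overlap. Akr1b8, an aldose reductase-like enzyme, rose by 0.77 ± 0.18 and Nfe2l2, which encodes the antioxidant factor NRF2, by 0.49 ± 0.06. Hmox1, heme oxygenase, differed by 0.55 ± 0.16, but not past the threshold in germ-free mice alone (adjusted p = 0.286) and not with the liver mean as a covariate (adjusted p = 0.251). Among carboxylesterases and acyl-CoA enzymes 5 of 22 rose and 13 fell, and of the 12 with a mean signal above the 40th percentile 4 rose and 8 fell.

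The antioxidant response element, searched as its core TGACNNNGC on both strands, was in 21.4% of the 42 promoter windows of 32 antioxidant genes and in 13.2% of all windows. The window of Gsta3 (chr1:21240335-21240634, plus strand, GRCm38.p6) is shown as the promoter of a glutathione transferase that fell and holds the core, in capitals, which begins at position -121 from the start.
Gsta3: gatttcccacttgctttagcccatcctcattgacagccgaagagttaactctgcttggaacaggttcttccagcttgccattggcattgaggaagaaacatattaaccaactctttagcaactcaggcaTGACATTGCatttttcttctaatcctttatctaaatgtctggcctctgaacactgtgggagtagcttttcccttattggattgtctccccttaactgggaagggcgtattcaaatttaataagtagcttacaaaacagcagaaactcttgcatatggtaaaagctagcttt
Gsta3 had signals of 11.59 to 11.92 (median 11.82) in fish oil-fed conventional, 11.06 to 11.44 (median 11.22) in fish oil-fed germ-free, 8.68 to 10.77 (median 10.39) in lard-fed conventional and 9.16 to 9.60 (median 9.43) in lard-fed germ-free mice. Its groups did not overlap between diets in either state. In the windows of the 12 largest rises, found for 10 of the genes, CCAAT was in 45.5%, and in those of the 12 largest falls, also found for 10, in 70.0%, against 37.4% of all windows. The antioxidant core was in 27.3% of the windows of these rises and in 10.0% of those of these falls, against 13.2% of all windows. The core was thus not more frequent among the largest falls.

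Enzymes and receptors of eicosanoids, the lipid mediators made from arachidonic and omega-3 acids, gave 11 rises and 9 falls among 26 genes. These were 42.3% and 34.6%, against 22.5% higher and 31.4% lower of all genes. The list mean lay from 8.50 to 8.71 (median 8.60) with fish oil and from 8.71 to 8.86 (median 8.79) with lard, a small difference without overlap. Tbxas1, thromboxane synthase, had signals of 8.25 to 9.11 (median 8.63) with fish oil and 9.29 to 10.87 (median 10.31) with lard, a difference of 1.57 ± 0.13 (limma adjusted p = 2.02e-09). Hpgds, the haematopoietic prostaglandin D synthase, rose by 1.31 ± 0.25. Ptges, a prostaglandin E synthase, fell from a range of 10.04 to 11.37 (median 10.78) to one of 9.23 to 10.19 (median 9.74), a difference of -0.98 ± 0.12. Alox15, a lipoxygenase that also acts on omega-3 acids, differed by -0.68 ± 0.20 (adjusted p = 0.00704) and passed in neither state alone, nor without the 5 mice (adjusted p = 0.101).

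**Figure D4:**
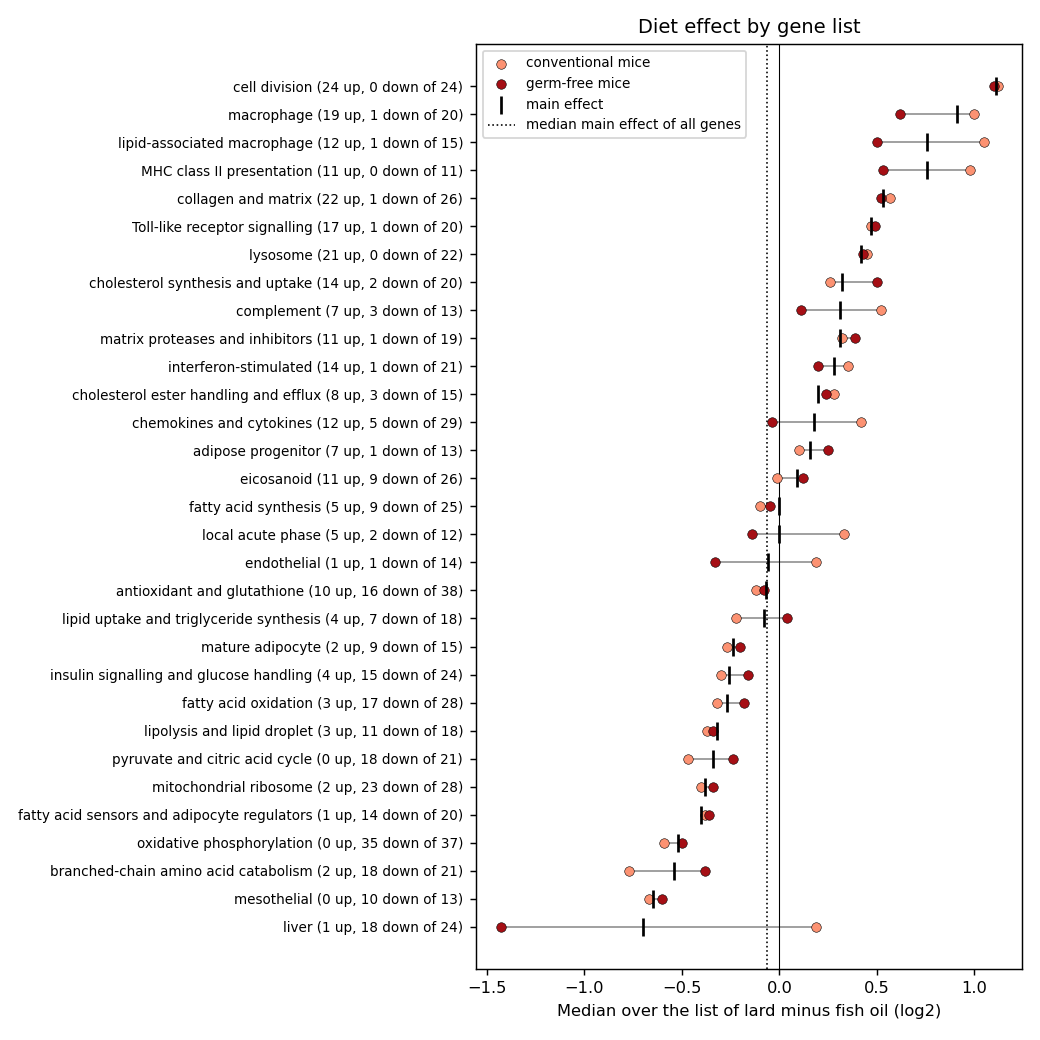
For each gene list the black bar is the median main effect, lard minus fish oil (log2), and circles are the medians within conventional and within germ-free mice; labels give the members called higher and lower, and the dotted line is the median of all genes, -0.06. The 3 medians nearly coincide for cell division, collagen, Toll-like receptor and lysosome genes, and lie farthest apart for liver markers, at 0.19 in conventional and -1.43 in germ-free mice.

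The leading counts were also made without the 5 lard-fed mice that stood apart. Of macrophage markers 18 of 20 then rose, of MHC class II genes 10 of 11, of Toll-like receptor genes 16 of 20, of lysosome genes 19 of 22 and of collagen and matrix genes 21 of 26. Of oxidative phosphorylation genes 33 of 37 fell, of branched-chain amino acid genes 17 of 21 and of lipolysis and droplet genes 11 of 18.

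Of the other tissues and cells, markers of mesothelium, the lining that covers the depot, were mostly lower with lard: 0 of 13 rose and 10 fell, with a median of -0.65. Muc16, a surface mucin, differed by -0.99 ± 0.16 and Msln, mesothelin, by -0.85 ± 0.15, with overlapping ranges. Endothelial markers gave few calls (1 of 14 rose and 1 fell), but their medians were 0.19 in conventional and -0.33 in germ-free mice. Taken alone, 2 of them rose in conventional and 5 fell in germ-free mice. Of smooth muscle and pericyte markers 2 of 10 rose (20%) and 3 fell (30%), near the 22.5% and 31.4% of all genes, with 1 lower without the 5 mice. Here 3 rose in conventional mice taken alone, while 1 rose and 5 fell in germ-free mice. For skeletal muscle 1 of 10 rose (10%) and 5 fell (50%), and for pancreas 1 of 7 rose (14.3%) and 2 fell (28.6%). For nerve and Schwann cells 2 of 7 rose (28.6%) and 3 fell (42.9%), and for red blood cells 0 of 2 rose and 1 fell. The muscle gene that rose, the calcium-binding parvalbumin gene Pvalb, differed by 1.81 ± 0.14, from a range of 5.95 to 7.27 (median 6.43) to one of 7.52 to 9.21 (median 8.18), without overlap, and without the 5 mice that stood apart 1 muscle marker was lower. Among intestinal epithelium markers 1 of 20 rose and 2 fell, and with the liver mean as a covariate 7 were higher and 1 lower, with a median of 0.65. The 1 that rose was Zg16, a goblet cell protein, at 1.22 ± 0.47, and it was 0.31 (adjusted p = 0.133) when mice 2, 4 and 5 of the lard-fed germ-free group were left out. The call also went when lard-fed conventional mouse 5 (adjusted p = 0.0523) or lard-fed germ-free mouse 5 (adjusted p = 0.0501) alone was left out.

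The average over both states did not describe the liver markers. Of 24, 1 rose and 18 fell in the main effect, but the interaction passed for 18 and the medians were 0.19 in conventional and -1.43 in germ-free mice. Alb, albumin, had signals of 8.39 to 11.28 (median 8.97) in fish oil-fed conventional, 11.70 to 12.88 (median 12.32) in fish oil-fed germ-free, 8.21 to 11.32 (median 9.85) in lard-fed conventional and 6.40 to 10.84 (median 8.22) in lard-fed germ-free mice. Fish oil-fed germ-free mice were the highest group, above every other mouse. The main effect of -1.62 ± 0.44 averages differences of 0.55 in conventional and -3.78 in germ-free mice (interaction adjusted p = 0.00512). Serpina1c, an alpha-1-antitrypsin gene, differed by 1.05 in conventional and -4.36 in germ-free mice, Fgb, a fibrinogen chain, by 0.27 in conventional and -3.01 in germ-free mice and Ahsg, fetuin A, by 0.99 in conventional and -2.47 in germ-free mice. In a model without the interaction Serpina1c (adjusted p = 0.0524) and Ahsg (adjusted p = 0.136) had no call. The liver mean is made of these same 24 markers, so as a covariate it centres their differences and cannot test them (4 higher and 5 lower). Of the 11 with a mean signal above the 40th percentile 1 was higher and 7 were lower. Hp, haptoglobin, which fat also makes, rose by 0.31 ± 0.05 in the average, at 0.42 in conventional and 0.21 in germ-free mice.

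A few inflammatory genes were of the same kind. Il1a, interleukin-1 alpha, had a main effect of -0.53 ± 0.11, but differed by 0.06 in conventional and -1.12 in germ-free mice (interaction adjusted p = 0.00271), and its fish oil-fed germ-free mice, at 5.29 to 6.67, were above most others. Saa3, the serum amyloid A of fat, had a main effect of 1.13 ± 0.20, made of 1.95 in conventional and 0.30 in germ-free mice (interaction adjusted p = 0.0149). Lcn2, lipocalin 2, had 0.61 ± 0.21, made of 1.34 in conventional and -0.12 in germ-free mice (interaction adjusted p = 0.0343), and lost its call without the 5 mice (adjusted p = 0.128) and with the liver mean as a covariate (adjusted p = 0.83). For these 3 genes the threshold was passed in 1 state alone.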

How the data were processed

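Epididymal fat RNA of 24 mice was measured on arrays. The deposited values are log2 signals that the authors made with RMA (background correction, quantile normalization, probe summary), per the submitters' processing notes. The version of RMA is not given in the sources used here, nor are scan dates. Of 35556 probe sets, 21789 had 1 symbol in the platform annotation, which can be old, 1621 had several and 12146 none. Symbols were updated by Entrez ID (21698 found). The probe set with the highest mean stood for a gene, which left 19938 genes; near-identical paralogs can share probes. No pair of arrays was identical (0).

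The 4 group means were fitted with limma 3.58.1 (lmFit, eBayes) under R 4.3.3. Contrasts were the mean of the lard groups minus the mean of the fish oil groups, lard minus fish oil within each state, and the interaction, two-sided, with Benjamini-Hochberg adjusted p under 0.05. Tables and plots used python 3.11.15, numpy 2.4.6, pandas 2.3.3 and matplotlib 3.10.9. The fit was tested on simulated data. Promoter windows are from RefSeq (GRCm38.p6).

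The comparison, the gene lists and the rule for named genes were chosen with earlier results of these data known. Named were the 12 largest rises and falls called in both states, up to 4 members of each list in each direction, a panel, and the genes most alike and most unlike between states. Predicted, clone and similar names were left out of the ranking. Alternatives were other scalings, filters, probe rules, models, a replicate block, and leaving out mice.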

Additional observations from a re-analysis of the deposited data

Results flagged for a closer look

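Among 160 named genes, 640 sets of 6 mice were examined for a mouse that lay far from the other 5 by Dixon's test, and 20 (3.1%) were found, where chance gives about 1 in 20. Fish oil-fed conventional mouse 6 held 7 of them. Its Cidea was 9.73 (others 7.66 to 8.15), Alb 11.28 (8.39 to 9.47), Fgb 8.34 (6.13 to 6.83) and Ahsg 7.91 (5.86 to 6.44), all above its group. Its Saa3 was 8.19 (9.21 to 9.64), Timp1 6.77 (8.42 to 9.30) and Mest 10.66 (11.39 to 11.81), all below it. In the same group Pygl was 10.93 in mouse 3 (10.48 to 10.64) and Retn 13.88 in mouse 1 (13.98 to 14.02).

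Among germ-free mice on fish oil the single values were Fam13a 11.78 in mouse 2 (12.08 to 12.22), Mrps18a 10.64 in mouse 2 (10.15 to 10.32), H2-Aa 11.80 in mouse 1 (12.25 to 12.41), Pccb 10.07 in mouse 3 (10.29 to 10.36), Gstp1 11.98 in mouse 3 (12.35 to 12.53) and Alox15 9.30 in mouse 4 (7.65 to 8.12). In lard-fed germ-free mice they were Pltp 12.89 in mouse 5 (13.06 to 13.15), Lox 10.40 in mouse 3 (10.62 to 10.72), Muc16 6.76 in mouse 3 (5.61 to 6.00) and Mpc1 11.22 in mouse 2 (11.50 to 11.62). In lard-fed conventional mice Zg16 was 6.20 in mouse 5 (4.99 to 5.43). Apart from mouse 6 of the first group, no mouse had more than 2.

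For 17 of the named genes the diet effects of the 2 states differed by limma's interaction test. The difference, conventional minus germ-free, was 5.42 for Serpina1c, 4.33 for Alb, 4.11 for Mup3, a major urinary protein, 3.45 for Ahsg and 3.29 for Fgb, all liver transcripts with a negative effect in germ-free mice. It was 1.64 for Saa3, 1.46 for Lcn2 and 1.18 for Il1a. For antigen presentation it was 0.57 for H2-DMa, 0.48 for Cd74 and 0.47 for H2-Eb1, with a rise in both states. Among genes that were lower with lard in both states it was -1.06 for Cidea, -0.80 for Acaca, -0.51 for Ffar4 and -0.34 for Asns, asparagine synthetase. Among those that were higher in both it was -1.55 for Oxtr and -0.72 for Lss.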

How the results depend on the processing

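With 6 mice in a group the number of arrays sets the precision, and RMA compresses differences of genes near background. No named gene reversed its direction under any alternative that was run for it. The liver markers were not followed with the liver mean as a covariate, which is made of them. Of the 159 genes called in the main effect (all but Scd1, which no alternative called) 146 kept their call under all that were run. Mertk, Tlr4, Irak1, Ccl2, Lcn2, Hmox1, Alox15, Sfrp5, Serpina1c, Ahsg, Mup3, Zg16 and Cpa3 lost theirs in 38 fits in all, and the cause was not tested. Against 10728 genes called, all probe sets gave 17000 (6732 higher, 10268 lower) because more features were tested, and a minimum of 1.5-fold gave 1595 (1051 higher, 544 lower, 1451 in both states). A filter at the 40th percentile of mean signal gave 3735 lower genes against 6251, with 52.0% of the called genes higher against 41.7%; median centring gave 46.8% and repeated quantile normalization 44.8%, and the median effect of all genes moved from -0.06 to -0.04 with both. Without all 5 lard-fed mice that stood apart 3696 genes were lower and 2641 were called in both states, and with the liver mean as a covariate 1875 were called in both states. Array weights raised the 1435 interaction calls to 2526, the liver covariate gave 2251, the fit without lard-fed conventional mice 5 and 6 gave 2710, and the fit without lard-fed germ-free mice 2, 4 and 5 gave 225. Models without an interaction term, and the 1.5-fold minimum, give no interaction count. Leaving out 1 mouse at a time gave 10019 to 11472 called, 4330 to 4587 higher, 5689 to 6885 lower, 3611 to 4643 in both states and 861 to 2070 interaction calls; the last was 909 without fish oil-fed conventional mouse 3, 861 without lard-fed conventional mouse 3 and 925 without lard-fed germ-free mouse 4. Mouse numbers recur in every group. Deviations of same-numbered mice were not correlated on average, with a mean of -0.016 against 0.004 for other numbers. The 36 pairs had correlations from -0.50 to 0.35, 9 of them over 0.1, and 2 mice correlated best with their own number. Whether mice of 1 number shared a cage, litter or batch is not in the labels and was not tested. With the replicate block 10618 genes were called, 4075 in both states and 1131 in the interaction.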

Other observations

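The counts of further lists stand beside those of all genes, of which 22.5% were higher and 31.4% lower. Of immediate early genes, which respond within minutes to stimulation, 5 of 16 rose (31.2%) and 5 fell (31.2%). Atf3, a stress-responsive repressor, had signals of 8.85 to 10.84 (median 10.22) with fish oil and 10.43 to 12.09 (median 11.44) with lard, a difference of 1.32 ± 0.17, Egr2 rose by 1.30 ± 0.19 and Fos by 0.95 ± 0.15. Ranges overlapped in all 3, and each was called in both states. Without the 5 lard-fed mice that stood apart 1 of the 16 was lower.

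Among circadian clock genes 3 of 17 rose (17.6%) and 6 fell (35.3%). The clock output gene Dbp rose by 0.85 ± 0.15 and Arntl, which encodes BMAL1, differed by -0.58 ± 0.12, each called in both states. Without the 5 mice 3 of the 17 were lower. The hour of sampling was not analysed here. In the glucocorticoid-responsive list 4 of 16 rose (25%) and 8 fell (50%). With the liver mean as a covariate 4 of the 16 were lower, and without the 5 mice 2 higher and 4 lower. In the unfolded protein and amino acid stress list 8 of 20 rose (40%) and 4 fell (20%). Asns, asparagine synthetase, fell from a range of 10.97 to 11.49 (median 11.18) to one of 10.23 to 10.55 (median 10.47), a difference of -0.78 ± 0.05 without overlap. In the hypoxia and glycolysis list 4 of 15 rose (26.7%) and 7 fell (46.7%). Hif1a, the hypoxia-inducible factor, rose by 0.61 ± 0.06 and separated the diets, while its known target Vegfa differed by -0.63 ± 0.10. Car1, a carbonic anhydrase counted among the intestinal markers, differed by -1.08 ± 0.19, called in both states.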
